A study of Mus musculus with 38 samples.

Results

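The 10 genes followed here mark primitive endoderm and the visceral endoderm that forms from it. They were taken by symbol from the deposited table of gene counts: Gata4, Gata6, Foxa2, Sox17, Sox7, Cubn, Amn, Dab2, Lrp2 and Pdgfra. Of these 10 genes, 9 had counts above 0, among 22408 genes with counts and 55385 genes in the table. Pdgfra was listed at 0 in all 38 libraries. RNA-seq was done on mouse embryonic stem (ES) cells of the 129S6/SvEvTac strain, grown on gelatin in medium with serum and leukemia inhibitory factor. The cells were treated with BRM014, an inhibitor of the ATPase subunits of the SWI/SNF chromatin remodelling complexes, or with an inactive analog or DMSO, the solvent.

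Batch 2450, as labelled, holds 26 libraries of wild-type cells in 13 groups of 2. Of these groups, 5 were given BRM014 at 10 uM, for 30 min and for 1, 3, 6 and 24 h. DMSO was given for 1 h and for 24 h, as was the inactive analog at 10 uM. The other 4 had BRM014 for 1 h followed by 30 min or 1 h of washout, or BRM014 for 24 h followed by 6 h or 24 h of washout, with no dose on the label. Batch 2457 holds 12 libraries in 6 groups of 2, namely wild type, Ino80ko and Snf2hko cells with DMSO or 10 uM BRM014 for 24 h. All cells carry the same strain label, and the labels do not say how the knockout lines were made or whether each is 1 clone. INO80 is the ATPase of the INO80 remodelling complex, and SNF2H, encoded by Smarca5, is the ATPase of ISWI complexes.

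Primitive endoderm is set apart from the epiblast in the blastocyst, when GATA6 and later SOX17, GATA4 and SOX7 come on in some cells of the inner cell mass while NANOG stays on in others. Its visceral branch surrounds the embryo and takes up maternal proteins by endocytosis. That uptake uses the receptors megalin and cubilin, the cubilin partner amnionless and the clathrin adaptor DAB2. Its parietal branch lays down a thick basement membrane. Cultures of ES cells in serum can hold some cells that express these genes, and in bulk RNA fewer cells of a type and less RNA per cell cannot be told apart.

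Library totals were 19349695 to 23053021 counts in batch 2450 and 21948010 to 44453556 in batch 2457. Levels below are CPM, the usual unit of counts set to one common library total, after scaling by trimmed means over all 38 libraries. The ES cell markers were high in every group, with summed CPM of the 8 markers from 4892 to 7358. The targeted genes gave no check of the knockout labels. Ino80 had 174 and 175 CPM in wild-type DMSO libraries of batch 2457, 128 and 122 CPM in Ino80ko and 130 and 125 CPM in Snf2hko, so its counts did not single out the line labelled Ino80ko. Smarca5 was listed at 0 in every library, wild type included, and so was Smarca4, the gene of a SWI/SNF ATPase, so the 0 of Pdgfra is not read as absence of its RNA.

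Among the transcription factors, Gata4 (ENSMUSG00000021944) is at chr14:63198922-63271692 on the minus strand of GRCm38 and Sox7 (ENSMUSG00000063060) at chr14:63943673-63950732 on the plus strand. Gata6 (ENSMUSG00000005836) is at chr18:11052064-11085635 on the plus strand, Sox17 (ENSMUSG00000025902) at chr1:4490931-4497354 and Foxa2 (ENSMUSG00000037025) at chr2:148042877-148046969, both on the minus strand. Gata6 and Sox17 overlap annotated genes on the opposite strand. The library kit keeps strand, but whether the counting did is not stated, so reads of such pairs may not have been told apart.

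Among the genes of endocytosis, Lrp2 (ENSMUSG00000027070) is at chr2:69424340-69586065 and Cubn (ENSMUSG00000026726) at chr2:13276338-13491813, both on the minus strand. Amn (ENSMUSG00000021278) is at chr12:111271095-111276426 and Dab2 (ENSMUSG00000022150) at chr15:6299788-6440712, both on the plus strand. Pdgfra (ENSMUSG00000029231), the gene of a receptor for platelet-derived growth factor that marks primitive endoderm, is at chr5:75152292-75198215. Cubn and Dab2 overlap annotated genes on the opposite strand, with the same limit.

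The 4 genes of the endocytic apparatus had unequal gains in the Snf2hko line, from 5.18-fold for Dab2 to 14.05-fold for Amn, and the 250 bases before their RefSeq starts (GRCm38.p6, 5′ to 3′ on the gene's strand) are shown for that reason. The windows are chr2:13491877-13492126 for Cubn, chr12:111270846-111271095 for Amn, chr2:69586030-69586279 for Lrp2 and chr15:6299539-6299788 for the first of the 2 Dab2 starts listed. Capitals mark a GATA word.
Cubn: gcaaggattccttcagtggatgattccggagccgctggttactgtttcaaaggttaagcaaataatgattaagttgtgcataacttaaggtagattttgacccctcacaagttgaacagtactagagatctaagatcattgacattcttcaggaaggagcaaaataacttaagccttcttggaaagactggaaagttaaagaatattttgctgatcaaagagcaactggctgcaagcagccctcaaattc
Amn: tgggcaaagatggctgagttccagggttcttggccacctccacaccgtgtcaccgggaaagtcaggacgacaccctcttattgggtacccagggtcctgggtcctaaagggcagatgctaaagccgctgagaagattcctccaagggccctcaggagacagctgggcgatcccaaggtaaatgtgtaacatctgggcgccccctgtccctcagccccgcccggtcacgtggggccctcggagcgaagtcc
Lrp2: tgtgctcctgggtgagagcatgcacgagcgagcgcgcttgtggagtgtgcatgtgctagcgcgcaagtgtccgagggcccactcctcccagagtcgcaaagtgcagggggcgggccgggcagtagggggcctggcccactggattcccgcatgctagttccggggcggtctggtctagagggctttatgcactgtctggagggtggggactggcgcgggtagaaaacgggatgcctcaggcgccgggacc
Dab2: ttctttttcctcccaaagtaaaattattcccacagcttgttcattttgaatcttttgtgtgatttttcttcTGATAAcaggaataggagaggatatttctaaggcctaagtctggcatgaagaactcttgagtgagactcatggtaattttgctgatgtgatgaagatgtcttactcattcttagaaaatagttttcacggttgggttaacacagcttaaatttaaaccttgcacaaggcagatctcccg
The words searched on both strands were AGATAA with AGATAG, and TGATAA with TGATAG, for GATA factors, ACAATG for SOX factors, and TGTTTAC with TGTTTGC for FOXA factors. A GATA word was in the Dab2 window, as TGATAA with its first base 179 bases before the start, and in 1 of 3 windows of Foxa2, as AGATAA 183 bases before the start. None of the words was in the windows of Cubn, Amn, Lrp2, Pdgfra or the second Dab2 start. For all 32851 windows of the same length, 26.5% held a GATA word, 10.7% the SOX word and 7.29% a FOXA word. Gata4, Gata6, Sox17 and Sox7 were not searched.

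The first question was how these genes differed between the lines without drug. In DMSO the 9 detected genes were low in Ino80ko, intermediate in wild type and high in Snf2hko, with the exception of Sox7, for which no difference between Ino80ko and wild type was called. The edgeR quasi-likelihood test called 8 of the 9 lower in Ino80ko than in wild type and all 9 higher in Snf2hko than in wild type, at a Benjamini-Hochberg adjusted p under 0.05. Over all 13130 genes tested, 22.9% were called lower in Ino80ko and 28.9% higher in Snf2hko. Both comparisons use the same 2 wild-type libraries. The genes were chosen with earlier results of these data known. The median log2 difference of the 9 genes was -1.33 in Ino80ko and 2.37 in Snf2hko, beside 0.0043 and 0.003 over all genes tested.

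Compared directly, all 9 genes were called higher in Snf2hko than in Ino80ko, from 4.37-fold for Sox7 to 35.3-fold for Amn. In this comparison 29.1% of all genes were called higher. This test uses no wild-type library. No call among the 9 genes changed under the other settings run for the comparisons between the lines.

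Gata4 encodes a zinc finger factor needed for visceral endoderm and for the heart. Its DMSO libraries had 22.1 and 17.96 CPM in Ino80ko, 59.4 and 51.2 in wild type and 219 and 229 in Snf2hko. The 3 lines did not overlap. Gata4 was 2.75-fold lower in Ino80ko (log2 difference -1.46 ± 0.10, SE, 2 libraries a group; edgeR adjusted p = 1.1e-09) and 4.04-fold higher in Snf2hko (2.01 ± 0.10; adjusted p = 2.4e-12).

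Gata6, which acts upstream of Gata4 in the primitive endoderm choice, had 10.8 and 10.7 CPM in Ino80ko, 19.4 and 19.6 in wild type and 102 and 99.4 in Snf2hko. The 2 libraries of each line lay close together and the lines did not overlap. The log2 difference from wild type was -0.86 ± 0.08 in Ino80ko, the smallest called change among the 5 transcription factors there, and 2.36 ± 0.08 in Snf2hko (edgeR adjusted p = 8.0e-08 and 1.5e-14).

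Sox17 and Sox7 encode related factors of the SOX group F, both of primitive endoderm. Sox17 had 4.49 and 4.69 CPM in Ino80ko, 12.9 and 14.3 in wild type and 77.7 and 76.9 in Snf2hko. It was 2.96-fold lower in Ino80ko and 5.64-fold higher in Snf2hko (edgeR adjusted p = 7.5e-08 and 5.5e-12). Sox7 had 14.07 and 13.6 CPM in Ino80ko beside 12.7 and 13.5 CPM in wild type. The log2 difference of Sox7 was 0.08 with a 95% interval from -0.16 to 0.32 (adjusted p = 0.59), and in Snf2hko it rose 4.62-fold to 61.5 and 60.1 CPM.

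Foxa2, a forkhead factor of visceral endoderm, definitive endoderm and node, was low in all lines. It had 2.09 and 1.88 CPM in Ino80ko, 6.08 and 6.03 in wild type and 27.2 and 27.8 in Snf2hko. The change was -1.61 ± 0.14 on the log2 scale in Ino80ko and 2.18 ± 0.11 in Snf2hko (edgeR adjusted p = 2.3e-08 and 3.7e-12).

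Lrp2 encodes megalin, the large endocytic receptor. It had 96.5 and 86.6 CPM in Ino80ko, 244 and 268 in wild type and 1703 and 1592 in Snf2hko. Lrp2 was 2.79-fold lower in Ino80ko and 6.41-fold higher in Snf2hko (edgeR adjusted p = 4.4e-09 and 1.2e-12). Per kilobase of exon it had the highest mean level of the 9 genes in each line in DMSO, at 5.48, 15.3 and 98.7 CPM per kb in Ino80ko, wild type and Snf2hko. In wild type its libraries (14.6 and 16.0 CPM per kb) overlapped those of the next gene, Gata4 (13.1 and 15.2 CPM per kb), and so they did in Ino80ko (5.19 and 5.78 beside 4.6 and 5.66 CPM per kb).

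Cubn, the gene of the receptor cubilin, and Amn, the gene of the membrane protein amnionless that carries cubilin to the cell surface, made the largest gains of the 9 genes in Snf2hko. Cubn had 44.6 and 38.8 CPM in Ino80ko, 65.5 and 69.2 in wild type and 736 and 715 in Snf2hko, a 1.61-fold loss and a 10.7-fold gain (edgeR adjusted p = 7.6e-05 and 2.6e-13). Amn had 1.57 and 1.83 CPM in Ino80ko, 4.28 and 4.31 in wild type and 57.9 and 63.4 in Snf2hko, a 2.51-fold loss and a 14.05-fold gain (edgeR adjusted p = 5.2e-06 and 2.7e-14). In levels per kilobase Amn was the lowest of the 9 genes in the wild-type DMSO libraries of batch 2457, at 2.33 CPM per kb, and the fourth highest in Snf2hko, at 32.9 CPM per kb. In wild-type DMSO 24 h of batch 2450 Amn had a mean of 6.71 CPM per kb, above the means of Sox7, Gata6, Sox17 and Foxa2, with its libraries overlapping those of Sox7.

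Dab2 encodes an adaptor that links megalin to clathrin. It had 20.1 and 19.1 CPM in Ino80ko, 39.4 and 38.9 in wild type and 196 and 212 in Snf2hko. The log2 difference from wild type was -0.99 ± 0.10 and 2.37 ± 0.10 (edgeR adjusted p = 1.9e-07 and 2.9e-13). The plot of the 3 lines shows these levels for the 9 genes.

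**Figure D1:**
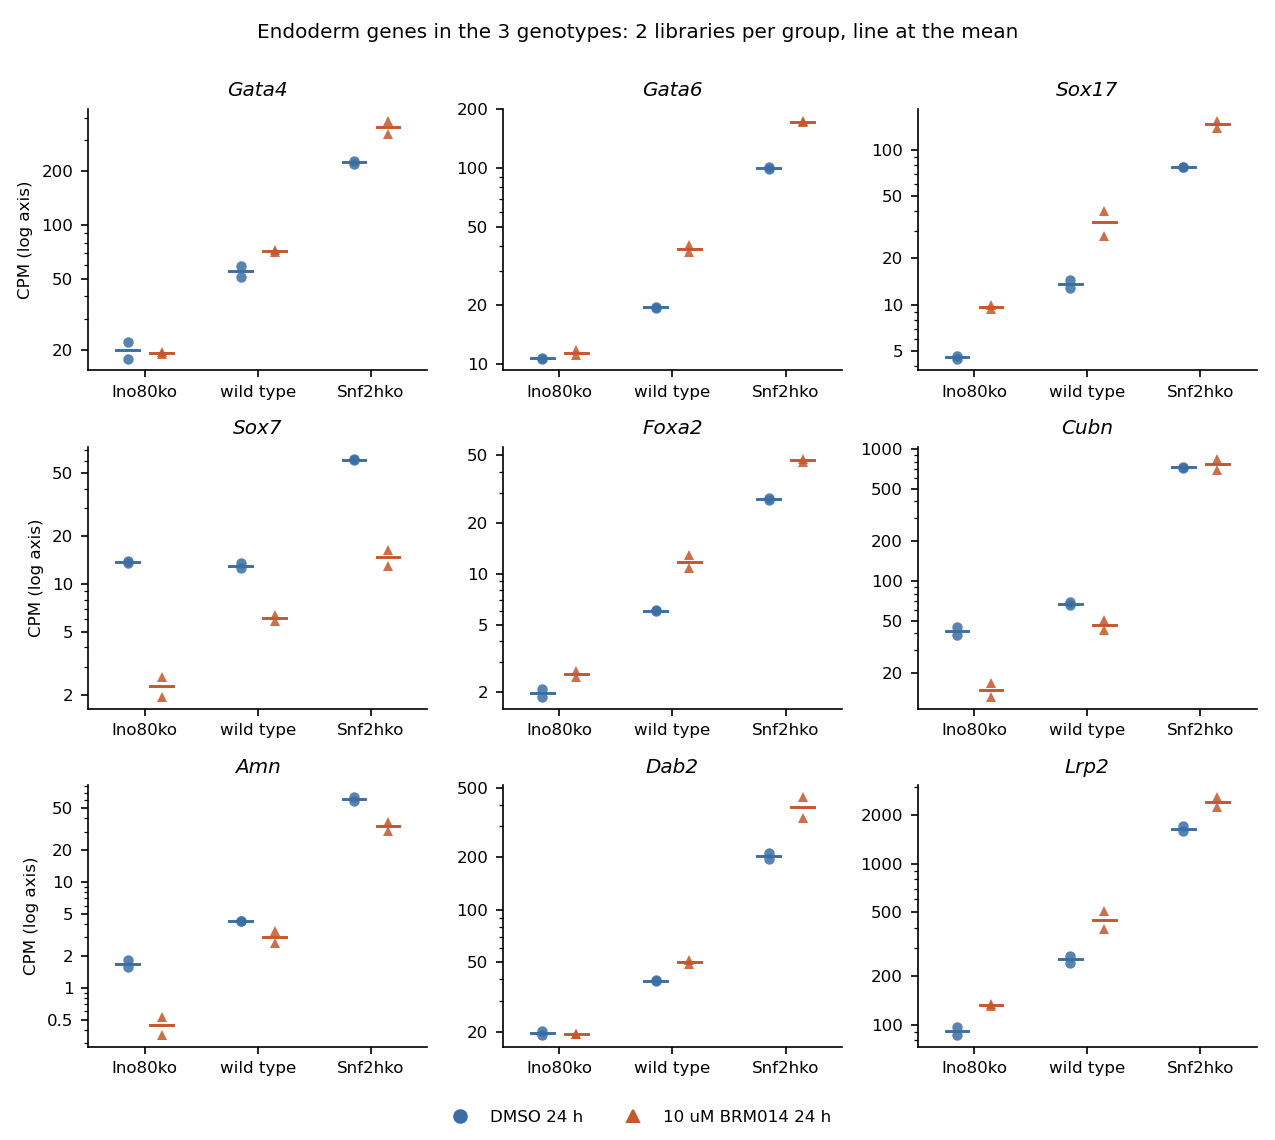
CPM (log axis) of the 9 detected genes in the 12 libraries of batch 2457, by line, with DMSO as circles and 24 h of BRM014 as triangles; each point is 1 library and each line a mean of 2. In DMSO the order is Ino80ko, wild type, Snf2hko for 8 genes, while Sox7 is at 13.6 to 14.07 CPM in Ino80ko and 12.7 to 13.5 CPM in wild type.

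The wild-type level itself differed between the batches. All 9 genes were called lower in the wild-type DMSO 24 h libraries of batch 2457 than in those of batch 2450, a comparison added after the values were seen, in which 12.3% of all genes were called and 7.34% were called lower. The log2 difference ran from -0.52 for Foxa2 to -1.54 for Amn. For Gata6, Cubn, Amn and Dab2 it was -0.78, -1.37, -1.54 and -1.07, beside -0.86, -0.69, -1.33 and -0.99 for Ino80ko against wild type within batch 2457. The edgeR call was lost with 1 wild-type library left out for Foxa2 (replicate 1, 3 or 4; adjusted p from 0.106 to 0.203), Sox7 (replicate 2, 3 or 4; 0.052 to 0.164), Cubn (replicate 3; 0.0588) and Lrp2 (replicate 3 or 4; 0.144 and 0.0746). DESeq2 gave Foxa2 an adjusted p of 0.052.

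Neither knockout line is in batch 2450, so each line was compared only with the 2 wild-type libraries of its own batch. For 8 of the 9 genes, Sox7 excepted, both Ino80ko DMSO libraries lay below all 4 wild-type DMSO 24 h libraries. Against all 30 wild-type libraries of either batch, whatever their treatment, this held for 7 genes. For all 9 genes both Snf2hko DMSO libraries lay above each of these 30 libraries. Gata6, for example, had at least 99.4 CPM in Snf2hko DMSO libraries and at most 72.7 CPM in wild type. The share of all genes set apart in these ways was not counted.

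**Figure D2:**
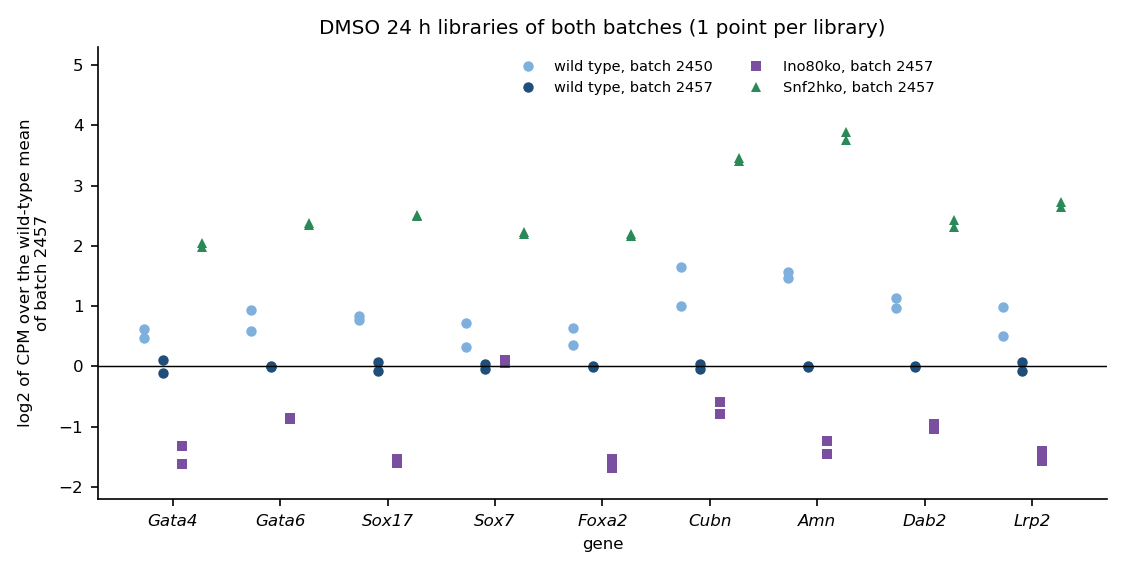
The DMSO 24 h libraries of both batches as log2 of CPM over the mean of the wild-type libraries of batch 2457 (1 point per library). Wild-type libraries of batch 2450 lie above 0 for all 9 genes, Ino80ko libraries below 0 for 8 genes and Snf2hko libraries above all others for all 9.

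Other endoderm genes were followed through lists taken from general knowledge of these lineages. The lists were chosen with earlier results of these data known, so they are not an independent check of the genes above. Beside the list counts in DMSO, 5905 of all 13130 genes tested were called in Ino80ko, 3005 of them lower. In Snf2hko 7425 were called, 3793 of them higher. Of 11 tested genes of parietal endoderm and basement membrane, 10 were called lower in Ino80ko and none higher, and 11 were called higher in Snf2hko, with median log2 differences of -0.85 and 1.63. Col4a1, Lamc1, Stra6 and Thbd of this list had no counts in any library, as Pdgfra, and were not tested. The laminin gene Lamb1 changed by -1.05 ± 0.07 and 1.68 ± 0.08, the collagen gene Col4a2 by -1.498 ± 0.09 and 1.88 ± 0.09, and Serpinh1, the collagen chaperone, by -0.85 ± 0.08 and 2.48 ± 0.08. Lama1 (-0.76 and 1.94), Sparc (-0.40 and 1.53) and the parathyroid hormone receptor gene Pth1r (-1.501 and 2.11) changed in the same pair of directions. All 3 keratin genes of the list rose in Snf2hko, Krt8 by 1.95 ± 0.07 and Krt18 by 1.52 ± 0.08, and Krt8 and Krt18 fell in Ino80ko by 0.88 and 0.89 on the log2 scale.

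The visceral endoderm list moved less evenly. Of 13 tested genes for secreted and transport proteins, 5 were called lower and 1 higher in Ino80ko, and 9 higher and 3 lower in Snf2hko, with medians of -0.12 and 1.015. Dkk1, a secreted Wnt antagonist, rose from 1.64 and 2.10 CPM in wild type to 35.8 and 37.4 in Snf2hko (log2 difference 4.28 ± 0.12), and Ihh, a hedgehog ligand, rose by 3.798 ± 0.22. Bmp2, a BMP ligand, fell in Ino80ko by 1.59 on the log2 scale and rose in Snf2hko by 1.57. Lefty1, a Nodal antagonist of the anterior visceral endoderm, went against the list in Snf2hko: it was lower in both lines, at -1.39 ± 0.10 and -1.90 ± 0.10. Apob, the gene of the main lipoprotein of yolk sac, was also lower in both, at -2.32 ± 0.28 and -0.96 ± 0.24.

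Partners of megalin and cubilin followed in part. Of 7 tested, 2 were called lower and 3 higher in Ino80ko, and 5 higher and none lower in Snf2hko (medians 0.20 and 0.92). Clcn5 of this list had no counts in any library. Lrpap1, the chaperone of megalin, changed by -0.97 ± 0.08 and 2.02 ± 0.08, and Tcn2, the carrier of vitamin B12, by -0.94 ± 0.09 and 1.36 ± 0.09. Other endoderm transcription factors were mixed, with 2 of 9 called higher and 1 lower in Ino80ko and 4 higher and 2 lower in Snf2hko (medians 0.03 and 0.68). Hnf4a and Otx2 of this list had no counts in any library and were not tested. Sox18, the other SOX group F gene, fell in both lines, by 2.33 and 2.68 on the log2 scale.

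Genes that feed the primitive endoderm choice did not follow the 9 genes. Of 6 tested, 3 were called higher and 2 lower in Ino80ko and none higher and 4 lower in Snf2hko (medians 0.28 and -0.33). Fgfr2, Grb2 and Ptpn11 of this list had no counts in any library, as Pdgfra, and were not tested. Nanog, the epiblast factor, changed by 0.34 ± 0.06 in Ino80ko and by -0.25 ± 0.06 in Snf2hko on the log2 scale. Dusp6, a feedback phosphatase of the ERK pathway, rose by 1.13 ± 0.08 in Ino80ko and was not called in Snf2hko (0.18 ± 0.07). Among 4 tested genes of the PDGF family, 1 was called higher and 2 lower in each line. Pdgfb had no counts in any library. The ligand gene Pdgfa was higher in both (0.69 and 0.81) and Pdgfc lower in both (-0.92 and -1.41).

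Markers of other cells were read beside these results. Of 8 ES cell markers, 3 were called higher and none lower in Ino80ko and 1 higher and 3 lower in Snf2hko. Their summed level was 5395 and 5752 CPM in wild type, 6012 and 6267 in Ino80ko and 4892 and 5166 in Snf2hko, without overlap between lines. This order is opposite to that of the 9 endoderm genes, Sox7 excepted. Of 6 markers of definitive endoderm and primitive streak, 3 were called higher in Snf2hko and 1 lower, and 1 lower in Ino80ko. Their summed level stayed low, at 5.35 and 7.78 CPM in wild type, 6.03 and 6.08 in Ino80ko and 16.65 and 17.3 in Snf2hko. Eomes, which is also expressed in visceral endoderm, rose by 1.96 ± 0.13 in Snf2hko.

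Fibroblast markers summed to between 7.57 and 12.2 CPM in these 6 libraries, with Col1a2 and Col3a1 listed at 0. Of the 3 tested, 1 was called in each direction in Ino80ko and 2 higher in Snf2hko. Trophoblast markers summed to 75.35 and 79.6 CPM in wild type, 17.7 and 18.7 in Ino80ko and 23.9 and 25.15 in Snf2hko, with Gata3 listed at 0; of 4 tested, 2 were called lower in each line and 1 higher in Snf2hko. Neuroectoderm markers summed to between 77.2 and 91.15 CPM, with Sox1 listed at 0; of 2 tested, 1 was called lower in Ino80ko and 1 higher in Snf2hko. Small counts here were not firm: with 1 library left out the calls of Mixl1, Pax6, Col1a1 and Thy1 in Ino80ko and of Mixl1, Lhx1, Nes and the PDGF receptor gene Pdgfrb in Snf2hko were lost (edgeR adjusted p from 0.050 for Lhx1 to 0.33 for Pax6). The part of these markers in the differences of the 9 genes was not tested.

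BRM014 was then followed in the 3 lines. After 24 h of BRM014 the distance between the lines was still there for all 9 genes. All were called lower in Ino80ko than in wild type (from -1.35 for Dab2 to -2.80 for Amn; 22.3% of all genes called lower) and all higher in Snf2hko than in wild type (from 1.27 for Sox7 to 4.05 for Cubn; 32.4% called higher). Sox7, for which that difference was not called in DMSO, was 2.67-fold lower in Ino80ko with BRM014 (2.59 and 1.95 CPM against 5.87 and 6.38; edgeR adjusted p = 9.4e-07).

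Within wild type the 9 genes divided into those that rose and those that fell. Over both batches and 4 libraries a group, the edgeR fit with a batch term called Foxa2 (0.99 ± 0.11), Sox17 (1.10 ± 0.12), Gata6 (0.72 ± 0.11) and Lrp2 (0.59 ± 0.14) higher and Sox7 (-1.28 ± 0.12), Cubn (-0.86 ± 0.18) and Amn (-0.73 ± 0.14) lower with BRM014. In this comparison 49.6% of 11787 genes were called. Gata4 (0.21 ± 0.09; adjusted p = 0.076) and Dab2 (0.13 ± 0.09; 0.26) were not called. All 4 BRM014 libraries of Foxa2 had 10.7 to 17.3 CPM, against 6.03 to 9.43 CPM in the 4 DMSO libraries, and Sox7 had 5.87 to 7.01 against 12.7 to 21.6 CPM. Sox17 (27.9 to 45 against 12.9 to 24.4 CPM) did not overlap either.

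With both batches put together, the BRM014 and DMSO libraries overlapped for Cubn, Amn and Lrp2, and did not for Gata6 (37.4 to 45.15 against 19.4 to 37.2 CPM). Cubn had 75.2 and 77.3 CPM with BRM014 and 134 and 211 with DMSO in batch 2450, and 50.1 and 42.1 against 65.5 and 69.2 in batch 2457. Within batches the log2 changes were -1.18 and -0.54 for Cubn, -0.97 and -0.46 for Amn, 0.36 and 0.81 for Lrp2, and 0.422 and 0.998 for Gata6, in batch 2450 and batch 2457. Without the batch term the edgeR calls of Cubn, Amn and Lrp2 were lost (adjusted p = 0.13, 0.17 and 0.091). Gata4 and Dab2 were called higher in batch 2457 alone (0.38 and 0.35) and not in batch 2450 (0.03 and -0.10). In the single batches 45.8% (2450) and 42.3% (2457) of all genes were called. Tested directly, the response differed between batches for 1 of the 9 genes, Gata6 (0.59 ± 0.16; edgeR adjusted p = 0.042), where 3.46% of all genes were called. This call was lost with any 1 of 7 of the 8 libraries left out (adjusted p from 0.0726 to 0.1757).

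Within batch 2457 the edgeR test called all 9 genes in wild type, where 42.3% of all genes were called. In Ino80ko it called 5. Sox17 (1.07 ± 0.15) and Lrp2 (0.54 ± 0.10) were higher with BRM014 than with DMSO. Sox7 (-2.61 ± 0.14), Cubn (-1.48 ± 0.12) and Amn (-1.93 ± 0.27) were lower, 5 of 9 where 44.5% of all genes were called. No group of this batch had the inactive analog, so its effect in the knockout lines was not tested. In wild type Sox7, Cubn and Lrp2 were lower with the analog than with DMSO, as given below. Sox7 went from 14.07 and 13.6 CPM to 2.59 and 1.95 CPM, a 6.09-fold fall, and Amn ended at 0.535 and 0.360 CPM. Gata4, Gata6 and Dab2 were not called, with 95% intervals from -0.27 to 0.17, -0.08 to 0.27 and -0.23 to 0.20, and neither was Foxa2 (0.37 ± 0.16; edgeR adjusted p = 0.064).

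In Snf2hko 6 of the 9 genes were called higher with BRM014 than with DMSO and 2 lower. Of all genes, 28.7% and 28.2% were called higher and lower. This line has no group with the inactive analog either. The genes that rose were Dab2 (0.94 ± 0.09), Sox17 (0.93 ± 0.11), Gata6 (0.79 ± 0.07), Foxa2 (0.77 ± 0.09), Gata4 (0.66 ± 0.09) and Lrp2 (0.55 ± 0.10). Lrp2 reached 2585 and 2232 CPM. Sox7 fell 4.12-fold to 16.4 and 13.1 CPM and Amn fell 1.80-fold to 30.1 and 36.9 CPM, while Cubn stayed at 841 and 695 CPM beside 736 and 715 (0.09, 95% interval -0.13 to 0.31).

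The test of the difference in response between a knockout line and wild type in batch 2457 called 4 genes for Ino80ko, where 9.03% of all genes were called, and 3 for Snf2hko, where 32.6% were. In Ino80ko the response was more negative for Sox7 (-1.5 ± 0.20), Amn (-1.47 ± 0.33), Cubn (-0.93 ± 0.16) and Gata6 (-0.90 ± 0.11), with edgeR adjusted p = 6.2e-05, 0.0073, 0.0013 and 3.7e-05. In Snf2hko it was more negative for Sox7 (-0.94 ± 0.17; adjusted p = 0.00035) and more positive for Cubn (0.63 ± 0.15; 0.0043) and Dab2 (0.59 ± 0.13; 0.0020). The Amn call for Ino80ko was lost without wild-type BRM014 replicate 3 (adjusted p = 0.060) or Ino80ko BRM014 replicate 2 (0.068). Both tests use the same 4 wild-type libraries. With no analog group in this batch, whether the lines also differ in their response to the analog was not tested.

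Leaving out single libraries also added calls here in each line. Without wild-type BRM014 replicate 4 the Snf2hko line was also called for Sox17 (-0.66; edgeR adjusted p = 0.0012) and Lrp2 (-0.45; 0.014). That library had the lower value of the pair for Sox17, 27.9 against 40.4 CPM. Without Snf2hko BRM014 replicate 2 it was also called for Gata4 (0.39; 0.024), Sox17 (-0.51; 0.043) and Amn (-0.57; 0.033).

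**Figure D3:**
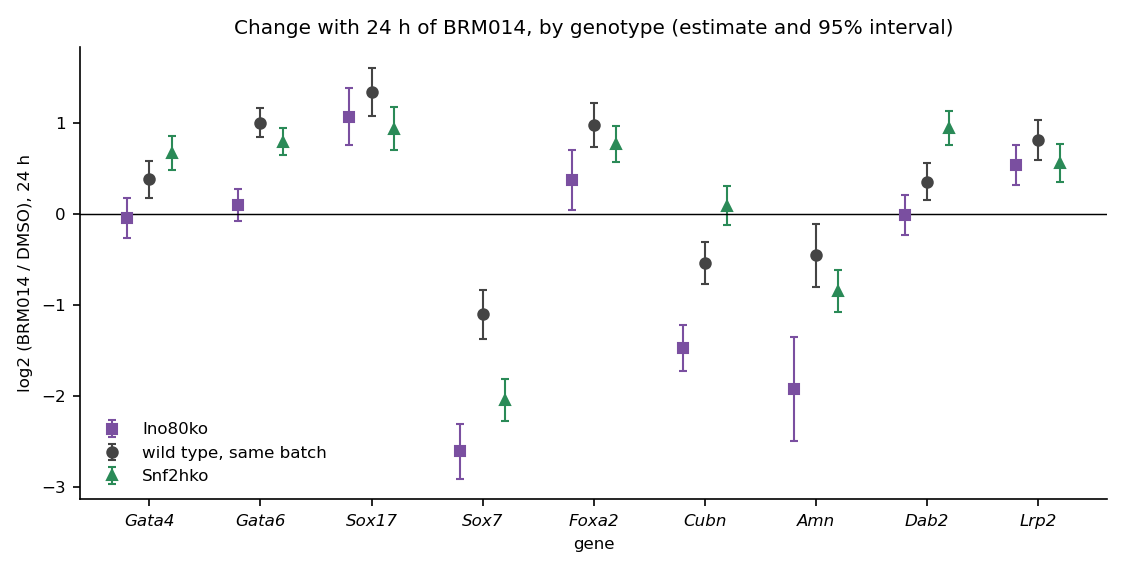
Log2 change of the 9 genes with 24 h of BRM014 in Ino80ko (squares), wild type of the same batch (circles) and Snf2hko (triangles), as the edgeR estimate with its 95% interval from 2 libraries a group. Sox17 lies above 0 in all lines, Sox7 and Amn below 0, and Cubn at -1.48, -0.54 and 0.09.

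The other endoderm lists were mixed under BRM014. In wild type over both batches, 3 of 11 tested genes of parietal endoderm and basement membrane were called higher and 4 lower (median -0.13), and all 3 keratin genes lower (median -0.60). In Ino80ko 3 of the 11 were called higher and 7 lower (median -0.37), and in Snf2hko 6 higher and 3 lower (0.22), while the keratin genes were again called lower in both lines. The secreted and transport proteins of visceral endoderm had 3 called higher and 5 lower of 10 tested in wild type (-0.31), 3 higher and 3 lower of 13 in Ino80ko (0.06), and 2 higher and 6 lower of 13 in Snf2hko (-0.58). The medians of the 9 genes were 0.21 in wild type, -0.0157 in Ino80ko and 0.66 in Snf2hko, beside 0.0033, -0.0002 and 0.0106 over all genes tested. The summed level of the ES cell markers with BRM014 was 6328 and 6547 CPM in wild type, 7061 and 7358 in Ino80ko and 4980 and 5291 in Snf2hko, and its part in these results was not tested.

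The earlier times are in batch 2450. At 30 min and at 1 h of BRM014 none of the 9 genes was called against DMSO 1 h by edgeR, where 0% and 0.599% of all genes were. At 30 min 0 of the 9 had an unadjusted p under 0.05 and DESeq2 called 0. At 1 h 1 of the 9 did, Sox17 (29.4 and 33.2 CPM in DMSO, 23.6 and 21.0 with BRM014; log2 change -0.50 ± 0.19, edgeR adjusted p = 0.43), and DESeq2 called 0. With the inactive analog for 1 h Sox17 was lower still, at 16.1 and 16.7 CPM, and the analog was not tested against DMSO at 1 h. At 1 h of BRM014 the 95% interval of the log2 change reached down to -0.34 for Gata4, -0.39 for Foxa2, -0.49 for Cubn and -1.13 for Amn, so falls of these sizes lie within the intervals.

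By 3 h and 6 h the genes had parted, against the mean of the DMSO groups of 1 h and 24 h, since no DMSO group of these times is labelled. Foxa2 (0.54 ± 0.12) and Sox17 (0.58 ± 0.16) were called higher and Gata4 (-0.31 ± 0.07) and Sox7 (-0.51 ± 0.13) lower at 3 h, where 31.2% of 12517 genes were called. At 6 h Foxa2 was at 0.56, Sox17 at 0.78, Gata4 at -0.51 and Sox7 at -0.89, and Cubn (-0.39 ± 0.15) and Dab2 (-0.19 ± 0.07) were called lower too, where 48.4% were called. Gata6 (0.20 at 3 h and 0.11 at 6 h), Amn (-0.32 and -0.44) and Lrp2 (-0.13 and -0.15) were called at neither time, and at 3 h Cubn was at -0.23 and Dab2 at -0.02. Against DMSO 24 h alone Gata6 was called higher at both times (edgeR adjusted p = 0.0043 and 0.024).

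Sox17 was high from 3 h on, with 42.7 and 39.1 CPM at 3 h, 45.6 and 46.5 at 6 h and 41.8 and 45 at 24 h. Sox7 went down at each time, with 11.3 and 12.6 CPM at 3 h, 9.18 and 8.93 at 6 h and 6.57 and 7.01 at 24 h, and these pairs did not overlap. Gata4 was at 67.2 and 64.4 CPM at 1 h, 62.01 and 62.4 at 3 h, 50.8 and 56.0 at 6 h and 72.9 and 92.6 at 24 h, against 72.1 to 85.1 CPM in the 4 DMSO libraries. Its libraries of 1 h, 3 h and 6 h lay below all 4 DMSO libraries, and the difference at 1 h was not called. Lrp2 stayed between 356 and 422 CPM from 30 min to 6 h of BRM014 and had 563 and 553 CPM at 24 h.

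Some of these edgeR calls rest on single libraries or on the choice of vehicle. At 3 h the calls of Sox17 and Sox7 were lost without BRM014 3 h replicate 1 (adjusted p = 0.11 and 0.084). At 6 h the call of Cubn was lost without any 1 of DMSO 1 h replicate 2, DMSO 24 h replicate 2 or either BRM014 6 h library (0.068 to 0.19), and that of Dab2 without either BRM014 6 h library (0.068 and 0.11). Against DMSO 1 h alone, 1 of the 9 genes was called at 3 h (Gata4) and 3 at 6 h (Gata4, Sox17 and Sox7). The 2 DMSO groups differed themselves, with Foxa2 (-0.52 ± 0.15) and Gata6 (-0.33 ± 0.10) called lower and Dab2 (0.27 ± 0.08) higher at 24 h than at 1 h, where 18.5% of all genes were called. Each of these 3 calls was lost with some single DMSO library left out, for Gata6 DMSO 1 h replicate 1 or 2 or DMSO 24 h replicate 1 (0.090 to 0.29), for Foxa2 replicate 2 of either group (0.12 and 0.17) and for Dab2 DMSO 1 h replicate 1 or 2 or DMSO 24 h replicate 2 (0.050 to 0.15). All 3 were lost in a fit of the 4 DMSO libraries alone (0.13, 0.062 and 0.071 for Gata6, Foxa2 and Dab2).

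**Figure D4:**
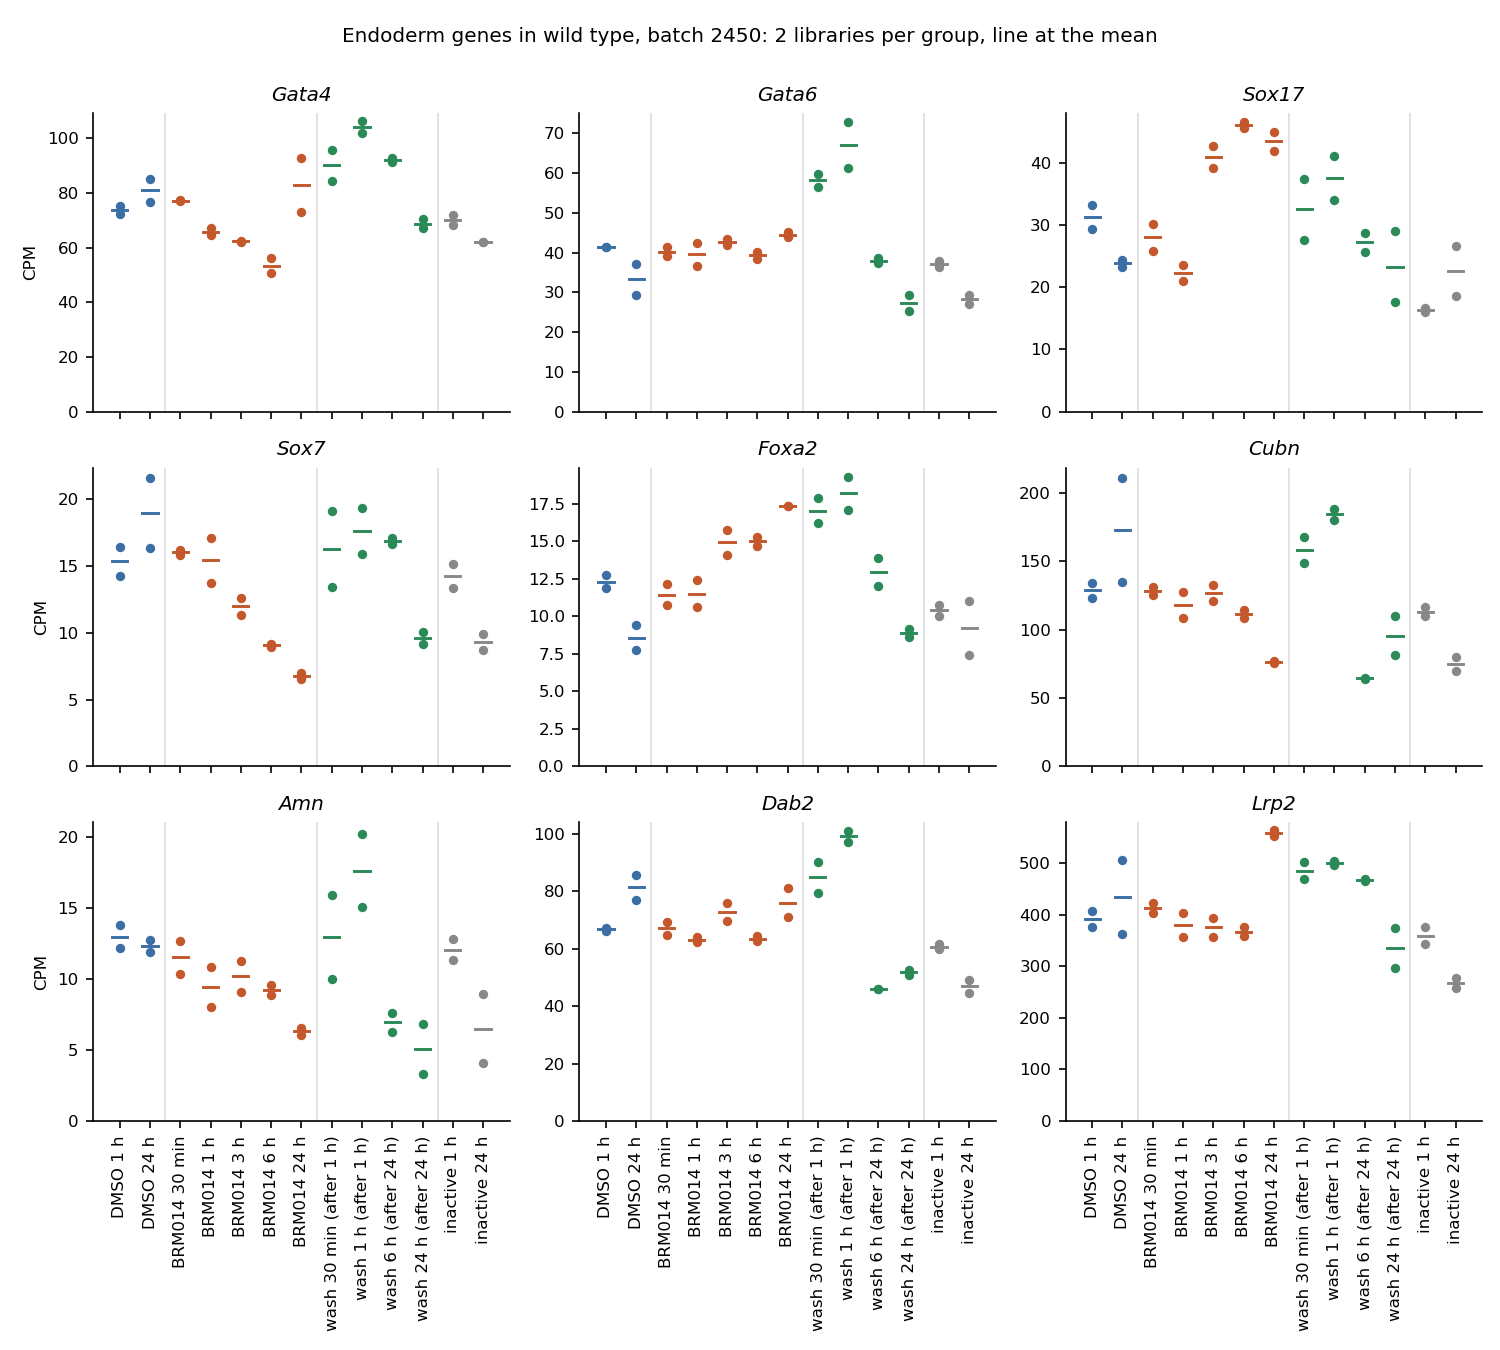
CPM of the 9 genes in the 13 groups of wild-type cells in batch 2450, with DMSO in blue, BRM014 in orange, washout in green and the inactive analog in grey; each point is 1 library, each line a mean of 2, and the axes start at 0. Sox7 goes down from 30 min to 24 h of BRM014 and is at 16.6 and 17.1 CPM after 6 h of washout, and the 1 h washout group has the highest mean of the 13 for Gata4, Gata6, Foxa2, Cubn, Amn and Dab2.

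The inactive analog was given at the same dose as BRM014, and the compounds were compared directly at 1 h and at 24 h, 2 comparisons in all. After 24 h most of the 9 genes were higher with BRM014 than with the analog, and after 1 h none was called. At 1 h the edgeR test called none of the 9 (0.16% of all genes), with 1 unadjusted p under 0.05, for Sox17 (0.45 ± 0.20), and DESeq2 called 0. Sox17 had 16.1 and 16.7 CPM with the analog for 1 h, 23.6 and 21.0 with BRM014 and 29.4 and 33.2 with DMSO. At 24 h it called 7, where 35.4% of all genes were called. Lrp2 (1.06 ± 0.12), Sox17 (0.94 ± 0.19), Foxa2 (0.91 ± 0.14), Dab2 (0.69 ± 0.08), Gata6 (0.65 ± 0.10) and Gata4 (0.41 ± 0.08) were higher with BRM014 than with the analog and Sox7 was lower (-0.45 ± 0.18).

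Cubn and Amn were not called between the compounds at 24 h, with log2 differences of 0.03 (95% interval -0.34 to 0.40) and -0.04 (-0.81 to 0.73). The call of Gata4 was lost without BRM014 24 h replicate 2 (edgeR adjusted p = 0.054). That of Sox7 was lost without either BRM014 24 h library or analog replicate 1 (0.11 to 0.21).

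The analog libraries of 24 h differed from DMSO 24 h as well. Cubn (-1.21 ± 0.17), Sox7 (-1.03 ± 0.16), Dab2 (-0.79 ± 0.08), Lrp2 (-0.70 ± 0.12) and Gata4 (-0.38 ± 0.08) were called lower, 5 of 9 where 18.4% of all genes were called and 9.52% were called lower. Cubn had 69.7 and 79.8 CPM with the analog, 75.2 and 77.3 CPM with BRM014 and 134 and 211 CPM with DMSO. Dab2 had 44.8 and 49.1 CPM with the analog, 71.0 and 81.2 with BRM014 and 77.1 and 85.8 with DMSO. Gata6 (-0.23 ± 0.10), Foxa2 (0.10 ± 0.15) and Sox17 (-0.08 ± 0.20) were not called. Amn was at -0.93 ± 0.33 and was not called by edgeR (adjusted p = 0.062), while DESeq2 called it lower (0.048). Its 2 analog libraries had 8.92 and 4.07 CPM, and the edgeR value was -1.59 without analog replicate 1 (adjusted p = 0.0075) and -0.46 without analog replicate 2 (0.42). The summed level of the 8 ES cell markers was 6785 and 6880 CPM with the analog, 6264 and 6305 with BRM014 and 5677 and 5871 with DMSO at 24 h, and its part in these results was not tested.

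After 1 h of BRM014, washout for 1 h gave higher levels than BRM014 for 1 h. This comparison was added after the values were seen. Gata6 (0.75 ± 0.09), Sox17 (0.75 ± 0.19), Gata4 (0.66 ± 0.08), Foxa2 (0.66 ± 0.14), Dab2 (0.65 ± 0.08) and Cubn (0.64 ± 0.17) were called higher, 6 of 9 where 3.98% of all genes were called and 3.02% were called higher. Amn (0.90 ± 0.30), Lrp2 (0.39 ± 0.12) and Sox7 (0.18 ± 0.15) were not called by edgeR, and DESeq2 called Lrp2 (adjusted p = 0.0070). Gata4 had 102 and 106 CPM after washout, against 67.2 and 64.4 CPM with BRM014 for 1 h and 72.1 and 75.3 with DMSO for 1 h. Gata6 had 61.1 and 72.7 CPM, against 36.7 and 42.3 with BRM014 and 41.4 and 41.3 with DMSO.

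For both genes the washout libraries lay above all BRM014 1 h and DMSO 1 h libraries, and no washed DMSO group is among the labels. No DMSO or BRM014 group of the same total time as this washout is labelled either. Its effect and that of the added time in culture cannot be told apart. The calls of Gata4, Gata6 and Dab2 held with each library left out in turn. Those of Sox17 and Cubn were lost without any 1 of the 4 libraries (edgeR adjusted p = 0.053 to 0.31 and 0.10 to 0.26) and that of Foxa2 without BRM014 1 h replicate 2 or washout 1 h replicate 2 (0.092 and 0.087).

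After 24 h of BRM014 and 6 h of washout, 4 of the 9 genes differed from BRM014 24 h, where 48.7% of all genes were called. For the washouts of 6 h and 24 h, too, no DMSO or BRM014 group of the same total time is labelled. Washout and the added time in culture therefore cannot be told apart. Sox7 rose 2.49-fold from 6.57 and 7.01 CPM to 16.6 and 17.1 CPM (1.32 ± 0.17), within the 16.4 to 21.6 CPM of DMSO 24 h. Dab2 fell by 0.72 on the log2 scale to 45.9 CPM in both libraries, Sox17 by 0.67 and Foxa2 by 0.42. The call of Foxa2 was lost without BRM014 24 h replicate 1 (edgeR adjusted p = 0.052) or washout 6 h replicate 1 (0.14), and that of Sox17 without washout 6 h replicate 2 (0.066). Cubn, at 63.9 and 64.9 CPM, was still below its DMSO 24 h libraries. Gata4 (0.16 ± 0.08), Gata6 (-0.22 ± 0.10), Lrp2 (-0.25 ± 0.12), Cubn (-0.24 ± 0.17) and Amn (0.14 ± 0.36) were not called against BRM014 24 h.

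At 24 h of washout 7 of the 9 genes differed from BRM014 24 h, where 50.4% of all genes were called. Foxa2 (-0.96 ± 0.14), Sox17 (-0.90 ± 0.19), Lrp2 (-0.73 ± 0.12), Gata6 (-0.70 ± 0.10), Dab2 (-0.55 ± 0.08) and Gata4 (-0.26 ± 0.08) were lower and Sox7 higher (0.51 ± 0.18). Cubn (0.33 ± 0.17) and Amn (-0.32 ± 0.37) were not called. Foxa2 was at 9.12 and 8.59 CPM, beside 9.43 and 7.73 CPM in DMSO 24 h. The call of Gata4 was lost without BRM014 24 h replicate 2 (edgeR adjusted p = 0.48) or washout 24 h replicate 1 (0.067), and that of Sox7 without either BRM014 24 h library or washout 24 h replicate 1 (0.053 to 0.10). That of Sox17 was lost in a fit of the compared libraries alone (0.11).

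After 24 h of washout 17.4% of all genes were called against DMSO 24 h, and 8.52% were called lower. Of the 9 genes, 5 were called lower. These were Amn (-1.29 ± 0.34), Sox7 (-0.97 ± 0.16), Cubn (-0.85 ± 0.17), Dab2 (-0.65 ± 0.08) and Lrp2 (-0.37 ± 0.12). Gata4 (-0.23 ± 0.08), Gata6 (-0.28 ± 0.10), Foxa2 (0.04 ± 0.15) and Sox17 (-0.03 ± 0.20) were not called, with edgeR adjusted p = 0.055 for each of Gata4 and Gata6. Sox7, which had been within its DMSO 24 h range at 6 h of washout, was at 10.1 and 9.18 CPM. The call of Amn was lost without DMSO 24 h replicate 1 or 2 or washout 24 h replicate 2 (edgeR adjusted p = 0.066, 0.079 and 0.17) and that of Lrp2 without DMSO 24 h replicate 2 or washout 24 h replicate 1 (0.59 and 0.34). In a fit of the compared libraries alone the calls of Cubn and Lrp2 were lost (0.091 and 0.21).

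Across the 19 group means of log2 CPM, centred within batch, Gata4, Gata6, Foxa2, Sox17, Dab2 and Lrp2 ran close together, with Pearson's r from 0.89 for Gata4 and Sox17 to 0.98 for Gata6 and Foxa2. Cubn and Amn were closest to each other among the 9 genes (r = 0.97). Sox7 stood apart, with r from 0.35 against Sox17 to 0.83 against Amn. These values describe 19 means of 2 libraries each, with both genes of a pair read from the same libraries, and the 4 knockout groups are far from the rest. Among 8064 genes compared, those most like Gata4 were Lamb1, App and Tpm4, those most like Gata6 were Lama1, Foxa2 and Lamb1, and those most like Lrp2 were Tmem214, Fhdc1 and Lamb1 (r = 0.98 for each first gene). Those most like Cubn were Cpd, Serpinh1 and Amn, those most like Dab2 were Flrt3, Nostrin and Klb, and those most like Sox7 were Ankrd33b, Serpine2 and Apobec2 (r = 0.95 for the first).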

How the data were processed

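Total RNA was sequenced from libraries of a stranded kit, per the labels' protocols. The deposited table holds raw read counts per gene, which the authors made after base calling with bcl2fastq 2.17 and alignment with STAR to GRCm38 (mm10), per the submitters' processing notes; the counting program and its strand setting were not given in those sources. All count columns were matched to samples by name, and groups were taken from the labels.

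Counts were tested with edgeR 4.0.16 (R 4.3.3, limma 3.58.1) by the robust quasi-likelihood test, with trimmed-mean scaling, genes kept by group at a minimum count of 10 and a total of 15, and Benjamini-Hochberg adjustment over all genes tested; a call is an adjusted p under 0.05. Batch 2457 (12 libraries, 13130 genes), batch 2450 (26 libraries, 12517 genes) and the 8 wild-type DMSO and BRM014 24 h libraries with a batch term (11787 genes) were fitted separately, and 9 of the 10 genes passed the filter in each. The scripts were tested on simulated data. Alternatives were DESeq2 1.42.0, other scaling, no filter, only the compared libraries, a replicate block and each library left out in turn. The labels state at least 2 biological replicates a group but not that they are separate cultures, so a p-value covers the scatter of these libraries, which may be technical. The 10 genes, the gene lists and the tests were chosen with earlier results of these data known. The 10 genes were followed in every comparison, in some of which the genes without a call are given as a count or range; of each other list, the named genes are up to 4 with the smallest adjusted p among those called in each knockout comparison and up to 3 in BRM014 against DMSO in wild type. The comparisons of washout 1 h with BRM014 1 h and of wild-type DMSO libraries between batches were added after the values were seen. Promoter windows came from RefSeq (GRCm38.p6) and coordinates from the GENCODE annotation of GRCm38. Some genes of the lists are not reported here.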

Additional observations from a re-analysis of the deposited data

Results flagged for a closer look

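The level of Gata4 in wild-type cells after 24 h of BRM014 was 92.64 CPM in replicate 2 of batch 2450, against 72.86, 72.58 and 70.95 CPM in the other 3 libraries. This sample stood far from the others of its group, and such a check marks about 1 group in 20 by chance. It was made for each detected gene in the wild-type DMSO and BRM014 24 h groups, with both batches put together. Without it, Gata4 was no longer called between BRM014 and the analog at 24 h, as given above.

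The response to 24 h of BRM014 differed between Ino80ko and wild type for Gata6 (log2 difference of the responses -0.90), Sox7 (-1.5), Cubn (-0.93) and Amn (-1.47). Between Snf2hko and wild type it differed for Sox7 (-0.94), Cubn (0.63) and Dab2 (0.59). These 7 differences were tested by the edgeR interaction term. It called 9.03% of all genes for Ino80ko and 32.6% for Snf2hko. The Amn call was lost with some single libraries left out, as given above. Neither knockout line has a group with the inactive analog, so its part in these differences was not tested.

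Between batches of wild-type cells, the response of Gata6 to 24 h of BRM014 was 0.59 ± 0.16 higher on the log2 scale in batch 2457 than in batch 2450 (edgeR adjusted p = 0.042), the only one of the 9 genes called, where 3.46% of all genes were. It held with DMSO replicate 1 of batch 2450 left out and not with any other of the 8 libraries left out.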

How the results depend on the processing

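No call among the 9 genes changed in the 369 values recomputed for the 5 comparisons between lines. Over all comparisons and settings, 2115 values of the 9 genes gave 78 lost calls, 76 gained calls and no reversed direction among called values. Scaling by relative log expression changed none of these calls. The cause of the changes below was not tested.

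Without a filter beyond 1 count, the called number of the 9 genes went from 3 to 5 for the Snf2hko difference in response, from 0 to 1 for BRM014 1 h and for BRM014 against the analog at 1 h, from 4 to 7 for washout 6 h against BRM014 24 h, from 3 to 5 for DMSO 24 h against 1 h and from 1 to 4 for the batch difference in response. Over all genes it went from 0 to 2 at 30 min, from 75 to 154 at 1 h, from 20 to 52 for BRM014 against the analog at 1 h and from 408 to 632 for the batch difference. In fits of the compared libraries alone, with few residual degrees of freedom, the 9 genes went from 4 to 8 calls for washout 6 h against BRM014 24 h, from 5 to 3 for washout 24 h against DMSO 24 h and from 3 to 0 for DMSO 24 h against 1 h. All genes went from 0 to 43 at 30 min, 75 to 49 at 1 h, 2306 to 996 for the analog at 24 h, 2181 to 655 for washout 24 h against DMSO, 2320 to 895 for DMSO 24 h against 1 h and 498 to 198 for washout 1 h. Against DMSO 1 h alone, calls went from 4 to 1 at 3 h and from 6 to 3 at 6 h. Without the batch term, BRM014 24 h in wild type went from 7 to 4, and DESeq2 took the batch difference from 1 to 2.

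With 1 library left out in turn, the called number of the 9 genes ran from 3 to 6 for the Snf2hko difference in response, 2 to 6 at 3 h, 3 to 6 for washout 24 h against DMSO, 0 to 5 for DMSO 24 h against 1 h, 3 to 4 for washout 1 h, 0 to 4 for the batch difference and 5 to 8 for wild-type DMSO between batches. All genes ran from 678 to 1150 for the Ino80ko difference in response, 17 to 45 at 1 h, 2513 to 3923 at 3 h, 1296 to 2411 for the analog at 24 h, 2 to 26 for BRM014 against the analog at 1 h, 1132 to 2611 for washout 24 h against DMSO, 1147 to 2736 for DMSO 24 h against 1 h, 229 to 403 for washout 1 h, 118 to 722 for the batch difference and 756 to 1602 for wild-type DMSO between batches.

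The replicate numbers did not pair the samples. Deviations of same-numbered libraries correlated at -0.449 to 0.575 over 78 pairs of groups in batch 2450 and at -0.167 to 0.463 over 7 in batch 2457, over 0.1 in 24 and 2 of them. With a replicate block, the Snf2hko against Ino80ko comparison kept 9 calls among the 9 genes, with 7590 genes called in place of 7536. The block took the batch difference in response from 1 to 4 of the 9 genes and from 408 to 810 genes. It also changed the calls of Gata4 in the Ino80ko difference (adjusted p = 0.042), Lrp2 in washout 6 h (0.049), and Sox17 (0.053, lost) and Lrp2 (0.036) in washout 1 h. No paired analysis was possible for knockout against wild type because these groups share no replicate numbers.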

Other observations

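Fst, Lefty1 and Dkk1, genes of the other endoderm lists, changed with BRM014 in each of the 3 lines. Fst, which encodes follistatin, an activin antagonist that parietal endoderm expresses, had 19.65 and 20.4 CPM in wild-type DMSO libraries of batch 2457 and 109 and 116 CPM with BRM014. It rose by 2.49 in wild type of that batch, by 2.49 ± 0.10 in Ino80ko and by 3.07 ± 0.09 in Snf2hko on the log2 scale (edgeR adjusted p = 8.8e-14, 3.6e-13 and 3.2e-15). The difference in response of Fst between Snf2hko and wild type was called (0.58 ± 0.12; adjusted p = 0.00091), and that between Ino80ko and wild type was not (0.01 ± 0.12).

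Lefty1, a Nodal antagonist, went the other way in all lines. It had 78.55 and 86.2 CPM in wild-type DMSO libraries and 9.66 and 11.8 CPM with BRM014, and in Ino80ko it went from 30.7 and 31.8 to 1.02 and 1.23 CPM. The log2 change of Lefty1 was -2.93 ± 0.11 in wild type of batch 2457, -4.79 ± 0.15 in Ino80ko and -3.02 ± 0.13 in Snf2hko. Its response was more negative in Ino80ko than in wild type (-1.86 ± 0.20; edgeR adjusted p = 6.6e-06).

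Dkk1 rose with BRM014 in each line, to 106 and 108 CPM in Snf2hko, 6.24 and 6.61 in wild type and 2.75 and 2.99 in Ino80ko. The log2 change of Dkk1 was smaller in Ino80ko (0.54 ± 0.15) than in wild type of the same batch (1.78 ± 0.13), a difference of -1.24 ± 0.20 (edgeR adjusted p = 0.00052).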
